A study of Ictalurus punctatus with 24 samples.

Results

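The 218 transcripts described here had far higher levels in 6 of the 12 intestine libraries of channel catfish (Ictalurus punctatus) than in the other 6. They were selected on their measured levels from 63022 rows of the intestine count table, by a rule on CPM (a row's counts scaled by the total of its library). A row was kept when its mean was 20 CPM or more in the first 6 libraries, its mean log2(CPM + 0.5) was more than 2 above that of the other 6, and its lowest value in the first 6 was above its highest value in the other 6. The 218 transcripts made up 4.68% of the 4656 rows that reached 20 CPM. The rule names 5 rows to leave out, and 0 of these met its limits. Because the rule used the levels in the 12 intestine libraries, the difference between the 2 sets of libraries is given as a description, with no test.

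The libraries came from Marion strain channel catfish fed for 10 weeks on a control diet without frass, on a low-frass diet (50 g/kg) or on a high-frass diet (300 g/kg). Frass is what black soldier fly larvae leave behind as they feed, and here it replaced part of the plant meals of the diet. Each diet had 4 intestine and 4 liver libraries, each made from the pooled tissue of several fish, so fish-to-fish differences within a pool cannot be seen. The first 6 intestine libraries, called posterior-like, were control replicates 1 and 4, low-frass replicate 3, and high-frass replicates 1, 2 and 3. The other 6, called anterior-like, were control replicates 2 and 3, low-frass replicates 1, 2 and 4, and high-frass replicate 4. The labels call all 12 intestine and give no gut segment, so both names describe the transcripts and not a recorded dissection. The diets were spread unequally over the sets, with 2 control, 1 low-frass and 3 high-frass libraries in the posterior-like set and 2 control, 3 low-frass and 1 high-frass libraries in the anterior-like set.

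In fish, the absorptive cells of the gut lining change along its length. The front part takes up most of the fat, sugar and amino acids. In zebrafish, a stretch toward the rear holds lysosome-rich enterocytes, which bind whole proteins with the receptor made of cubilin and amnionless, draw them in by endocytosis and break them down in large lysosomes. Bile acids are recovered in the rear part by an apical sodium-dependent transporter, and Hox genes of the posterior paralogue groups mark the rear of the body axis.

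Totals ran between 12534783 and 17371695 counts in the intestine libraries and between 10494755 and 15604418 in the liver libraries. At 10 counts, sampling alone gives a relative error of 31.6%. The 218 transcripts belonged to 218 genes, of which 212 were protein coding, 164 had a gene name and 54 had only a LOC identifier. In the reference annotation, 206 of these genes (94.5%) had 1 transcript, against 95.9% of all rows at 20 CPM. Counting ignored strand, and the spans of 36 of the 218 genes overlapped another gene, among them amn, ctsa, hsp90b1, nox1, hoxd3a and hsd11b2. A read over exons of both genes was not counted, so the levels of these genes may be understated. Part of their reads may also come from the neighbour. Overlaps were not counted for other rows. The levels are reads per library and were not corrected for transcript length, so they compare libraries and not genes.

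The names of the sets were set beside marker genes for gut position. The marker lists were made with earlier results of these data known, so this is a description and no independent check. Of the posterior position genes, 9 rows reached 20 CPM in either set, but 7 of these were among the 218 transcripts and were chosen for being higher. The other 2, cdx1a and cdx1b, encode caudal-type homeobox factors of the intestine, and their log2 differences were 0.87 and 1.06. Of 19 anterior position rows, only gata4 reached 20 CPM in either set. Many of the others are transcripts of the same gene (gata5, gata6 or hoxa3a). Reads shared by such transcripts were not counted, so the levels of these genes may be understated. Gata4 averaged 0.221 ± 0.150 CPM in the posterior-like libraries and 37.0 ± 22.4 CPM in the anterior-like libraries (SD, n = 6 each). Below that level some rows did not follow the name. Hoxb5a averaged 12.6 CPM in the posterior-like and 10.3 CPM in the anterior-like libraries, and a hoxa3a row 2.55 and 0.128 CPM. Of 13 fat absorption rows, 11 were lower in the posterior-like libraries, and so were 9 of 11 rows for peptide, amino acid and sugar transporters. These counts stand beside 76.4% of all 4854 rows at 20 CPM being higher in the posterior-like libraries when scaled by the library total. With TMM scaling (edgeR's trimmed mean of M-values) 54.8% were higher, 12 of the fat absorption rows and 9 of the transporter rows were lower, and cdx1a and cdx1b were still higher. Not every posterior marker followed the name. The ileal fatty acid binding protein fabp6 ranged from 169 to 3352 CPM in the posterior-like libraries and from 23.0 to 6556 CPM in the anterior-like libraries, and these ranges overlap. In bulk libraries such as these, a change in the share of a cell type and a change in RNA per cell cannot be told apart.

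Together the 218 transcripts held between 70138 and 103081 CPM in the posterior-like libraries, with a median of 87292 CPM. In the anterior-like libraries they held between 7314 and 14530 CPM, with a median of 7588 CPM. The lowest posterior-like library, high-frass replicate 2, therefore lay far above the highest anterior-like library, control replicate 3. The other 5 anterior-like libraries stayed at or below 8314 CPM. Their share of all counts was between 7.01% and 10.3% in the posterior-like libraries and between 0.731% and 1.45% in the anterior-like libraries. The median log2 difference was 2.89 over the 218 transcripts, against 0.48 over the 4854 rows. It was above 4 for 48 of the 218 and below 3 for 116.

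**Figure D1:**
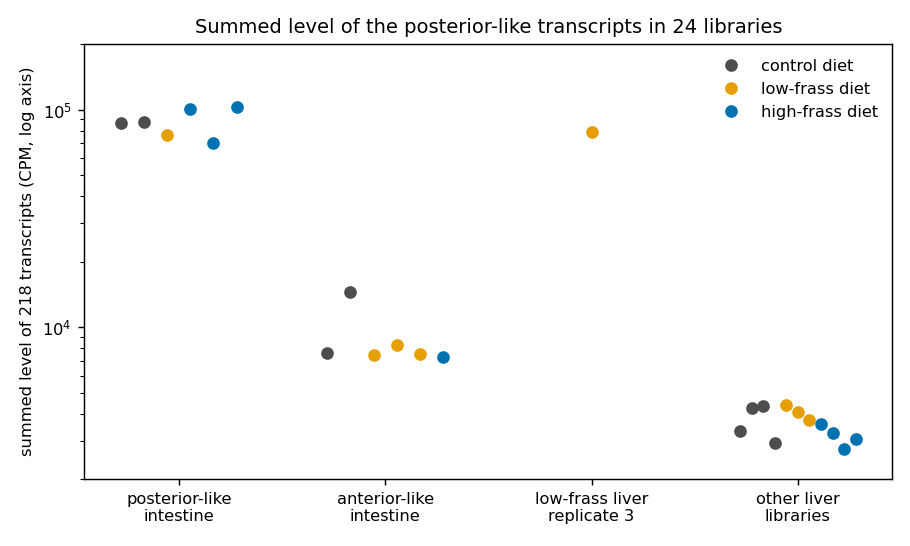
Summed level of the 218 transcripts (CPM, log axis) in each of 24 libraries, 1 point per library, coloured by diet. The 6 posterior-like intestine libraries lie between 70138 and 103081 CPM, above the 6 anterior-like libraries at 7314 to 14530 CPM, and low-frass liver replicate 3, at 79164 CPM, lies with the posterior-like set while the other 11 liver libraries stay between 2759 and 4399 CPM.

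Scaling by the library total placed most rows higher in the posterior-like set. TMM scaling lowered the median of all 4854 rows by 0.41, to 0.07. Under TMM the median of the 218 transcripts was 2.48, and 142 of them still met the whole rule. All 218 were still higher in the posterior-like libraries, against 54.8% of the 4854 rows. The rule had chosen the 218 on the same libraries, so these counts are not independent of it.

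Near its limits, the rule separated neighbours by little. At the limit on the level, hoxd3a was kept with 20.1 CPM and hoxd4a, the next gene on the chromosome, was left out with 19.9 CPM. At the limit on the difference, afap1l2 was kept with 2.002 and c1galt1lb was left out with 1.9999. At the limit on overlap, pole was kept with a posterior-like minimum of 9.59 CPM over an anterior-like maximum of 8.91 CPM. The chemokine row ccl19a.2 was left out with a minimum of 4.04 CPM and a maximum of 4.08 CPM. In all, 20 rows passed the level and the difference but overlapped.

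For the description, 63 of the named transcripts were grouped into 8 roles, after their values had been seen. The map of their levels by library shows the change at the border between the sets for every role.

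**Figure D2:**
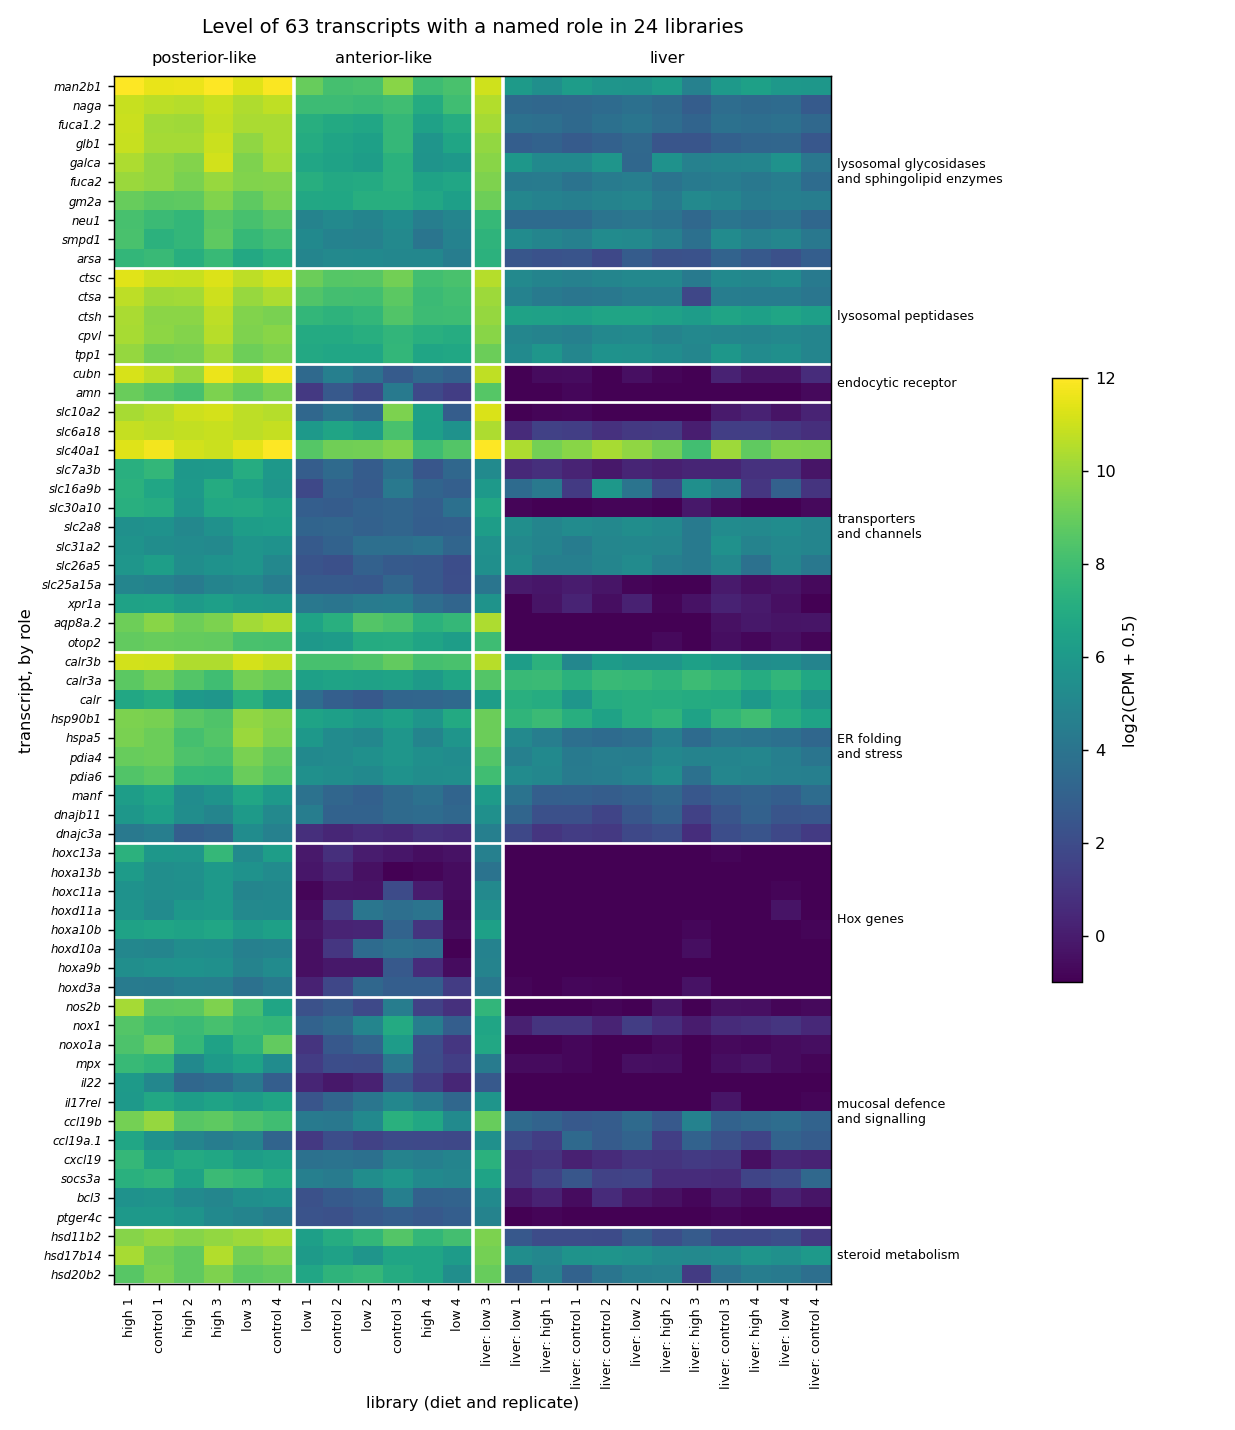
Level of the 63 transcripts with a named role, as log2(CPM + 0.5), 1 row per transcript and 1 column per library. Columns run from the 6 posterior-like to the 6 anterior-like intestine libraries, then low-frass liver replicate 3, then the other 11 liver libraries, and low-frass liver replicate 3 resembles the posterior-like columns, with slc10a2 at 2457 CPM.

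The endocytic receptor had the widest gap of the 8 roles. Cubilin, encoded by cubn (chromosome 1, 19245145 to 19277287, Coco_2.0), is the large protein that binds the ligand. It had 2380, 1671, 1037, 3170, 1955 and 3369 CPM in the posterior-like libraries (high-frass replicate 1, control replicate 1, high-frass replicates 2 and 3, low-frass replicate 3 and control replicate 4). In the anterior-like libraries its lowest, median and highest values were 6.06, 10.2 and 23.5 CPM. The log2 difference was 7.53, the second largest of the 218.

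Amnionless, encoded by amn (chromosome 2, 23718028 to 23720358), anchors cubilin in the membrane. Its levels in the posterior-like libraries ran from 294 to 694 CPM with a median of 499 CPM, and in the anterior-like libraries from 1.76 to 19.4 CPM with a median of 3.03 CPM. Both genes were lowest among the posterior-like libraries in high-frass replicate 2, and amn was highest among the anterior-like libraries in control replicate 3. Part of the amn reads could belong to trim16, which overlaps it and was itself among the 218 transcripts. Of the endocytic uptake list, 4 rows reached 20 CPM in either set, and 2 of these were among the 218. Of the other 2, 1 was higher and 1 was lower in the posterior-like libraries, scaled by library total or by TMM. The higher one, pllp, averaged 45.7 ± 14.5 CPM in the posterior-like libraries and 17.1 ± 4.04 CPM in the anterior-like libraries (SD, n = 6 each). It did not reach the difference required.

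Lysosomal enzymes made up the group with the most counts. The 10 glycosidases and sphingolipid enzymes summed to 11618 ± 2820 CPM in the posterior-like libraries and 1290 ± 418 CPM in the anterior-like libraries (SD, n = 6 each). Lysosomal alpha-mannosidase, man2b1, trims mannose from glycoproteins, and it ran from 2592 to 5090 CPM with a median of 3511 CPM in the posterior-like set. In the anterior-like set it ran from 246 to 820 CPM with a median of 306 CPM. Beta-galactosidase, glb1, ran from 932 to 1998 CPM with a median of 1279 CPM in the posterior-like set and from 54.8 to 199 CPM with a median of 97.0 CPM in the anterior-like set. For both genes high-frass replicate 3 was the highest posterior-like library, low-frass replicate 3 the lowest, and control replicate 3 the highest anterior-like library.

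Alpha-N-acetylgalactosaminidase, naga, varied little in the posterior-like set, between 1400 and 1922 CPM, and lay between 126 and 262 CPM in the anterior-like set. The alpha-fucosidase fuca1.2 lay between 1130 and 1989 CPM in the posterior-like set, against 86.9 to 200.1 CPM in the anterior-like set. Galactosylceramidase, galca, which splits a myelin-type glycolipid, varied more, between 708 and 2179 CPM in the posterior-like set, with 51.7 to 160 CPM in the anterior-like set. The other 5 members of the group were the fucosidase fuca2, the ganglioside activator gm2a, the sialidase neu1, acid sphingomyelinase smpd1 and arylsulfatase A, arsa. Their log2 differences ran from 2.21 for gm2a to 3.26 for neu1.

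The 5 lysosomal peptidases summed to 6347 ± 1646 CPM in the posterior-like libraries and 1212 ± 288 CPM in the anterior-like libraries (SD, n = 6 each). Cathepsin C, ctsc, removes dipeptides from protein ends, and it ran from 1660 to 2689 CPM with a median of 2126 CPM in the posterior-like set and from 263 to 592 CPM with a median of 386 CPM in the anterior-like set. Cathepsin A, ctsa, a carboxypeptidase that also protects beta-galactosidase and the sialidase in mammals, ran from 1014 to 2044 CPM in the posterior-like set and from 235 to 417 CPM in the anterior-like set. Cathepsin H, ctsh, had a log2 difference of 2.09, the carboxypeptidase cpvl 2.77 and the tripeptidyl peptidase tpp1 2.65.

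The wider lysosomal list differed unevenly between the sets. Of a list of 50 lysosomal genes, 29 rows reached 20 CPM in either set, and 27 of these were higher in the posterior-like libraries (25 with TMM scaling). Among the 29, 12 were members of the 218 and so were chosen for being higher. Of the other 17 rows, 15 were higher (13 with TMM scaling), against 76.4% of all 4854 rows (54.8% with TMM scaling). The median log2 difference over the 29, with the 12 included, was 1.72, against 0.48 over the 4854 rows. Prosaposin, psap, which feeds the sphingolipid enzymes their activators, had a log2 difference of 1.83, and cathepsin B, ctsba, 1.26. The membrane protein lamp1a had -0.30, with 2055 ± 621 CPM in the posterior-like libraries and 2512 ± 604 CPM in the anterior-like libraries (SD, n = 6 each), ranges that overlap.

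Among the 13 transporters and channels, the apical bile acid transporter slc10a2 (chromosome 6, 18152868 to 18159115) had the largest log2 difference, 5.76. It had 1259, 1488, 2052, 2267, 1652 and 1484 CPM in the posterior-like libraries, in the order given for cubn. In the anterior-like libraries it had 9.49 CPM in low-frass replicate 1, 16.8 CPM in control replicate 2, 11.2 CPM in low-frass replicate 2, 697 CPM in control replicate 3, 83.4 CPM in high-frass replicate 4 and 6.62 CPM in low-frass replicate 4. Control replicate 3 and, less so, high-frass replicate 4 were thus above the other 4 anterior-like libraries.

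The neutral amino acid transporter family member slc6a18 was the steadiest of the abundant transcripts, at 1669 to 1912 CPM in the posterior-like set, a coefficient of variation of 5.49%. It had between 48.7 and 312 CPM in the anterior-like set. The iron exporter ferroportin, slc40a1, had 2639, 3525, 2234, 1956, 2873 and 4826 CPM in the posterior-like libraries, in the same order, and between 248 and 753 CPM in the anterior-like libraries. Both control libraries were above all 3 high-frass libraries in the posterior-like set for this gene.

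The water channel aqp8a.2 ran from 563 to 1462 CPM in the posterior-like set and from 92.2 to 365 CPM in the anterior-like set. The proton channel otop2 ran from 299.7 to 502 CPM in the posterior-like set and from 60.9 to 132 CPM in the anterior-like set. The manganese exporter slc30a10 ran from 56.9 to 146 CPM in the posterior-like set and from 6.30 to 13.6 CPM in the anterior-like set. The other 7 members carry cationic amino acids (slc7a3b), monocarboxylates (slc16a9b), sugars (slc2a8), copper (slc31a2), anions (slc26a5), mitochondrial ornithine (slc25a15a) and phosphate (xpr1a). By contrast, the intestinal peptide transporter slc15a1b, which was not among the 218, averaged 79.4 ± 51.0 CPM in the posterior-like libraries and 10985 ± 11564 CPM in the anterior-like libraries (SD, n = 6 each). Low-frass replicate 1 had 33392 CPM of it, and without that library the anterior-like mean was 6503 ± 4065 CPM (SD, n = 5).

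The 8 Hox transcripts were low in counts, with most values close to 0 in the anterior-like set. Of the 8, 7 stood on the list of posterior position genes. Hoxd3a did not, and hoxa3a, of the same paralogue group, stood on the anterior list. Hoxd3a averaged 20.1 CPM in the posterior-like libraries and 4.87 CPM in the anterior-like libraries, so its direction did not follow the names of the sets. Hox genes encode transcription factors that set position along the body axis. Hoxc13a (chromosome 15, 4619683 to 4623873) ran from 37.2 to 202 CPM with a median of 65.7 CPM in the posterior-like set and from 0.188 to 1.2 CPM in the anterior-like set. Hoxa13b ran from 37.5 to 70.0 CPM with a median of 47.4 CPM in the posterior-like set and from 0 to 0.718 CPM in the anterior-like set, where a few reads per library carry the value.

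The Hox transcripts differed in how they behaved in the anterior-like libraries. Hoxd11a had 16.8 CPM in low-frass replicate 2, 12.8 CPM in control replicate 3 and 15.6 CPM in high-frass replicate 4, but 1.83 CPM in control replicate 2, 0.176 CPM in low-frass replicate 1 and 0.115 CPM in low-frass replicate 4. Hoxd10a and hoxd3a were also highest in those 3 libraries. Hoxa10b, in contrast, had 8.33 CPM in control replicate 3 and at most 1.44 CPM in the other 5. Hoxa9b and hoxc11a were likewise highest in control replicate 3.

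Hox members lay side by side in the genome. Hoxa13b, hoxa10b and hoxa9b lie on chromosome 1 between 14473999 and 14496671, and hoxd11a, hoxd10a and hoxd3a on chromosome 6 between 24273397 and 24309676. In all, 36 of the 218 genes stood in 16 groups of neighbours at most 3 gene steps apart. The same count was not made for other expressed genes, so no clustering is read from it. The 217 genes with a known place were spread over 29 chromosomes. Other groups joined amn, trim16 and otop2 on chromosome 2 (23718028 to 23754732), and LOC108260624, ccdc86 and glb1 on chromosome 29 (16054021 to 16073140).

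A group of 10 members encodes proteins that fold or check new proteins in the endoplasmic reticulum (ER). Their sum was 4613 ± 1313 CPM in the posterior-like libraries and 666 ± 92.6 CPM in the anterior-like libraries (SD, n = 6 each). The chaperone BiP, hspa5, had 668, 535, 283, 372, 1038 and 701 CPM in the posterior-like libraries, in the order given for cubn, and between 28.5 and 60.3 CPM in the anterior-like libraries. Low-frass replicate 3 was the highest and high-frass replicates 2 and 3 were the lowest of the posterior-like set.

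The chaperone hsp90b1 was also highest in low-frass replicate 3, with 932 CPM. Its lowest levels were 337 CPM in high-frass replicate 3 and 411 CPM in high-frass replicate 2, the reverse of their order for hspa5. In the anterior-like set it ran from 54.5 to 118 CPM. The co-chaperone dnajc3a ran from 6.92 to 39.6 CPM in the posterior-like set and from 0.798 to 1.32 CPM in the anterior-like set. The calcium-binding chaperones calr, calr3a and calr3b, the disulphide isomerases pdia4 and pdia6, the secreted ER stress protein manf and the co-chaperone dnajb11 completed the group, with log2 differences from 2.09 for dnajb11 to 3.37 for pdia4.

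The 12 transcripts of mucosal defence and signalling differed up to 2.39-fold in sum among the posterior-like libraries. They summed to 2214 ± 818 CPM there and to 213 ± 169 CPM in the anterior-like libraries (SD, n = 6 each). Inducible nitric oxide synthase, nos2b, had 1234, 406, 422, 707, 296 and 99.9 CPM in the posterior-like libraries, in the order given for cubn, and between 1.27 and 22.3 CPM in the anterior-like libraries. High-frass replicate 1 was the highest, and control replicate 4 was the lowest of the 6.

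The epithelial oxidase nox1 ran from 198 to 369 CPM in the posterior-like set and from 6.91 to 124 CPM in the anterior-like set. Its organiser noxo1a ran from 89.9 to 515 CPM in the posterior-like set and from 1.46 to 71.8 CPM in the anterior-like set. In both genes the anterior-like maximum came from control replicate 3. The cytokine il22, which in mammals prompts epithelial cells to make antimicrobial proteins, had 67.8 CPM in high-frass replicate 1 and between 6.84 and 32 CPM in the other 5 posterior-like libraries, against 0.399 to 4.72 CPM in the anterior-like libraries.

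The chemokine ccl19b ran from 260 to 997 CPM in the posterior-like set and from 17.9 to 151 CPM in the anterior-like set. Neutrophil peroxidase, mpx, ran from 35.3 to 219 CPM in the posterior-like set and from 1.99 to 17.1 CPM in the anterior-like set. Of 25 immune cell markers, 6 rows reached 20 CPM, with mpx the only member. All 6 were higher in the posterior-like libraries (5 with TMM scaling), against 76.4% of all 4854 rows (54.8% with TMM scaling). The summed level of that list ran from 923 to 1843 CPM in the posterior-like libraries and from 704 to 1528 CPM in the anterior-like libraries, and 60 of its 78 rows had no reads in the intestine. The part of immune cells in the levels of these transcripts was not tested.

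Of the 3 enzymes of steroid metabolism, hsd11b2, which turns cortisol into an inactive steroid in mammals, ran from 802 to 1308 CPM in the posterior-like set and from 79.9 to 368 CPM in the anterior-like set. The dehydrogenase hsd17b14 ran from 449.7 to 1462 CPM in the posterior-like set and from 54.6 to 99.6 CPM in the anterior-like set. Hsd20b2, which reduces cortisone in zebrafish, ran from 398 to 707 CPM in the posterior-like set and from 42.9 to 199 CPM in the anterior-like set. The gut hormone insl5a, a marker of hindgut endocrine cells in mammals, ran from 140 to 228 CPM in the posterior-like set and from 16 to 69 CPM in the anterior-like set.

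Several of the transcripts with the most reads had no gene name. LOC108278070 (chromosome 17, 25302919 to 25307914) ran from 7337 to 11434 CPM with a median of 10884 CPM in the posterior-like set and from 286 to 935 CPM in the anterior-like set. LOC108279015 (chromosome 18, 7370351 to 7406343) had the largest log2 difference, 7.70, with 4212 to 10508 CPM in the posterior-like set and 19.2 to 68.3 CPM in the anterior-like set. LOC108267196 had 151 to 296 CPM in the posterior-like set and 0.627 to 1.99 CPM in the anterior-like set, and LOC108264642 had 69.9 to 238 CPM in the posterior-like set and 0.469 to 1.44 CPM in the anterior-like set.

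Some abundant transcripts divided the posterior-like libraries themselves. The row of ccdc86, a non-coding transcript model of that gene, had 5090, 4392, 3268 and 4379 CPM in high-frass replicate 1, control replicate 1 and high-frass replicates 2 and 3. It had 1031 CPM in low-frass replicate 3 and 951 CPM in control replicate 4, and at most 231 CPM in any anterior-like library. LOC108277197 had 3217 and 3989 CPM in control replicates 1 and 4, 1818 CPM in low-frass replicate 3, and 904, 461 and 424 CPM in high-frass replicates 1, 2 and 3. Its anterior-like values ran from 8.02 to 220.0 CPM.

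The other unnamed transcripts with more than 900 CPM on average kept narrower ranges or no clear order. LOC108279895 ran from 1525 to 3940 CPM in the posterior-like set and from 48.5 to 466.4 CPM in the anterior-like set. The long non-coding RNA LOC108263322 ran from 439.6 to 2088 CPM in the posterior-like set and from 10.5 to 277 CPM in the anterior-like set. LOC108256728, LOC108276114 and LOC108258663 had log2 differences of 3.01, 5.11 and 4.55.

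Over the 218 transcripts, the coefficient of variation across the posterior-like libraries had a median of 30.5%, from 4.83% for spermine synthase, sms, to 136% for LOC108269971. High-frass replicate 3 held the highest posterior-like value for 68 of the 218 and high-frass replicate 1 for 49, while high-frass replicate 2 held the lowest value for 62. In the anterior-like set, control replicate 3 held the highest value for 125 of the 218. That library had 14530 CPM in all, and without it the summed level of the anterior-like set ran from 7314 to 8314 CPM. The counts of highest and lowest values rest on scaling by the library total. They were not made for the other rows, so nothing about the 218 is read from them.

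Not all roles varied together across the posterior-like libraries. Pearson's r between the mean log2 levels of the glycosidases and the peptidases was 0.95 over the 6 libraries, and between the peptidases and the Hox genes 0.90. Between the glycosidases and the steroid enzymes it was 0.87, and between the ER group and the transporters and channels 0.76. Between the ER group and the Hox genes it was -0.75, and between the ER group and the peptidases -0.52. These values describe 6 libraries that differ in diet, share a scale set by the library total and include the values used by the rule. High-frass replicate 3 had 15780 CPM for the glycosidase group, the highest of the 6, and 2987 CPM for the ER group, the lowest. Low-frass replicate 3 had 8736 CPM for the glycosidase group, the lowest, and 6411 CPM for the ER group, the highest.

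**Figure D3:**
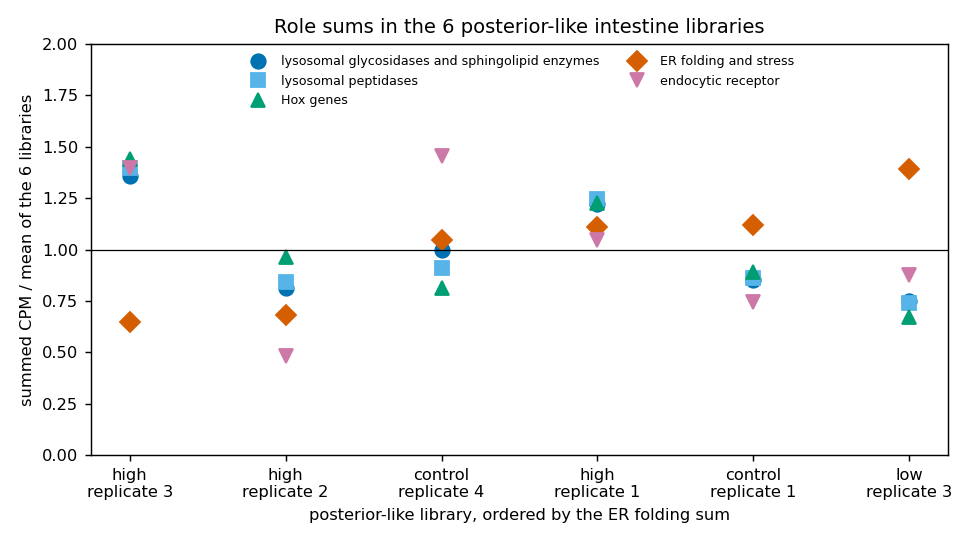
Summed CPM of 5 roles in each posterior-like library divided by the mean of the 6 libraries, with libraries ordered by the ER folding sum. Lysosomal and Hox sums were highest in high-frass replicate 3 (glycosidases 15780 CPM), where the ER sum was lowest (2987 CPM), and the reverse order held in low-frass replicate 3.

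Markers of other cell types also differed between the sets. Of all 4854 rows, 76.4% were higher in the posterior-like libraries (54.8% with TMM scaling). Of 6 cell division rows at 20 CPM, all 6 were higher there with both scalings. That list summed to between 325 and 1361 CPM in the posterior-like libraries and between 109 and 365 CPM in the anterior-like libraries. Only 2 of 11 goblet cell genes were matched. Both rows were higher with both scalings, with a sum between 215 and 332 CPM in the posterior-like libraries and between 41.2 and 102 CPM in the anterior-like libraries. Pancreas acinar rows summed to between 23.0 and 50.0 CPM in the posterior-like libraries and between 31.9 and 20837 CPM in the anterior-like libraries. Smooth muscle and stroma rows overlapped, with 10473 to 21845 CPM in the posterior-like libraries and 5423 to 15653 CPM in the anterior-like libraries. Of 6 such rows at 20 CPM, 5 were higher in the posterior-like libraries, but only 2 with TMM scaling. Their part in the levels of the 218 transcripts was not tested.

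The liver gave values that the rule had not used. In 10 of the 12 liver libraries (all but replicate 3 of each frass diet, which the study removed) the 218 transcripts summed to between 2953 and 4399 CPM. The median over these livers was below 1 CPM for 100 of the 218 transcripts, between 1 and 20 CPM for 81, and 20 CPM or more for 37. Cubn had at most 1.06 CPM, amn at most 0.133 CPM and slc10a2 at most 0.729 CPM. In all, 10 transcripts, hoxa13b, hoxd10a, hoxa9b and il22 among them, had no reads in any of these 10 livers.

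Ferroportin was the member with the highest liver median, 785 CPM (453 to 1329 CPM), above its anterior-like maximum of 753 CPM. Hepatocytes and macrophages of the liver are known to export iron through this protein. Next came si:dkey-22f5.9 at 222 CPM, calr3a at 189 CPM, hsp90b1 at 161 CPM and pnp5a at 150.3 CPM. For 6 transcripts the liver median was above the posterior-like mean, and these were calr, ca5a, bcat1, si:dkey-22f5.9, the complement component c6 and mylk5. For c6 the liver values ran from 62.6 to 136 CPM, against 18 to 53.6 CPM in the posterior-like libraries, and they did not overlap.

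Low-frass liver replicate 3 held the 218 transcripts at 79164 CPM, within the range of the posterior-like intestine libraries. It had 1730 CPM of cubn, 382 CPM of amn, 2457 CPM of slc10a2, 2149 CPM of man2b1 and 82.5 CPM of hoxa10b. Of the 218 transcripts, 217 were above every anterior-like intestine library in it, against 53.6% of the 4438 other rows at 20 CPM in the posterior-like libraries. Scaled by TMM, the counts were 212 of the 218 and 28.1% of the other rows. In each of the 10 kept livers, 17 to 24 of the 218 were above every anterior-like library, against 2.86% to 3.72% of the other rows. The rule had required the 218 to lie low in the anterior-like libraries, and the other rows were not chosen so. The shares of the 218 are therefore not independent of the rule, and nothing is read from their gap to the other rows.

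For 174 of the 218 the value in low-frass liver replicate 3 reached the lowest posterior-like value. The same count was not made for the other rows, so nothing about the 218 is read from it. Across 9423 rows, which are not independent replicates, its Pearson's r was 0.94 to 0.97 with the posterior-like libraries and 0.87 to 0.91 with the anterior-like libraries. The hepatocyte product hpxa, hemopexin, had 508 CPM in it and a median of 157958 CPM in the 10 kept livers. Low-frass intestine replicate 3, whose title carries the same code, was posterior-like too. The titles do not say whether the code stands for the same fish. Pearson's r of low-frass liver replicate 3 was 0.960 with that library, and 0.965 with control and with high-frass intestine replicates 4 and 2. The counts of the 2 low-frass libraries differed by more than sampling noise (chi-square per degree of freedom 104). The same measure was 73.6 between high-frass and control intestine replicates 1. It shows only that the 2 sets of counts are not identical data. Whether the 2 libraries share tissue or RNA was not tested. High-frass liver replicate 3 had 2759 CPM in all for the 218 transcripts.

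**Figure D4:**
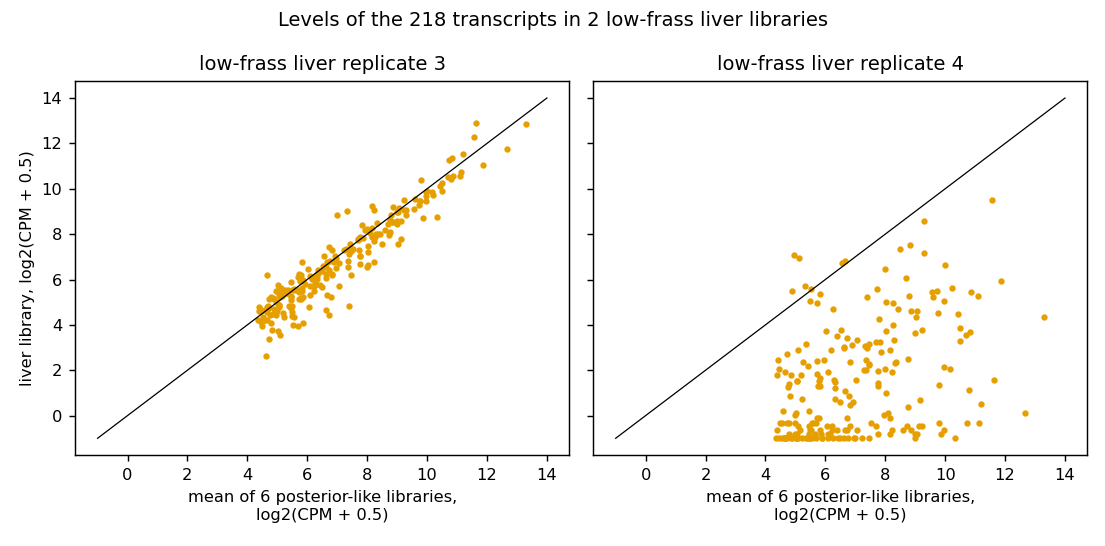
Levels of the 218 transcripts in low-frass liver replicate 3 (left) and low-frass liver replicate 4 (right) against their mean in the 6 posterior-like intestine libraries, both as log2(CPM + 0.5), with the line of equal values. In replicate 3 the points follow the line, with 217 of 218 above every anterior-like library, while in replicate 4 most lie far below it and 22 were above every anterior-like library.

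The diets were compared over the 12 intestine libraries to find which transcripts change with frass in the feed. The test was edgeR's quasi-likelihood test with Benjamini-Hochberg adjustment, and a call required a fold change above 2 with an adjusted p under 0.05. All 218 transcripts were among the 10401 features tested. In low-frass against control, 0 of the 218 were called, as were 0 of all features (0%). In high-frass against control, 0 of the 218 and 0% of all features were called, and the same held for high-frass against low-frass. DESeq2, fitted with the 3 diets together, called 0, 0 and 2 of the 218 in these comparisons, against 0.00961%, 0.0192% and 0.115% of all features, and the 2 were txnipb and LOC108265213.

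At an unadjusted p under 0.05, edgeR gave 0 of the 218 transcripts in low-frass against control (1.04% of all features). In high-frass against control it gave 5 of the 218, or 2.29%, with 2.84% of all features. In high-frass against low-frass it gave 19 of the 218, or 8.72%, with 8.57% of all features. The last count depended on the fit, with 43 of the 218, or 19.7%, in DESeq2 (10.6% of all features) and 45 of the 218, or 20.6%, in edgeR with no filter on low counts (6.02% of all features). The rule fixed a difference between the sets, and the diets are spread unequally over the sets, so these counts of the 218 are not independent of the rule and nothing is read from them.

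The fold changes of the 218 transcripts leaned to 1 side in each comparison. Their median log2 fold change was -0.66 in low-frass against control, 0.46 in high-frass against control and 1.18 in high-frass against low-frass, with medians of 0.03, -0.00 and -0.03 over all features. In low-frass against control only 10 of the 218 were above 0, in high-frass against control 182 were, and in high-frass against low-frass 207 were. The number above 0 was not counted over all features. The 3 comparisons share libraries. The posterior-like set held 2 of 4 control libraries, 1 of 4 low-frass libraries and 3 of 4 high-frass libraries. The rule chose the 218 for being higher in that set, so a lean of this kind follows from the rule and nothing is read from it. With library set added to the fit as a block, the medians were -0.17, -0.09 and 0.14.

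**Figure D5:**
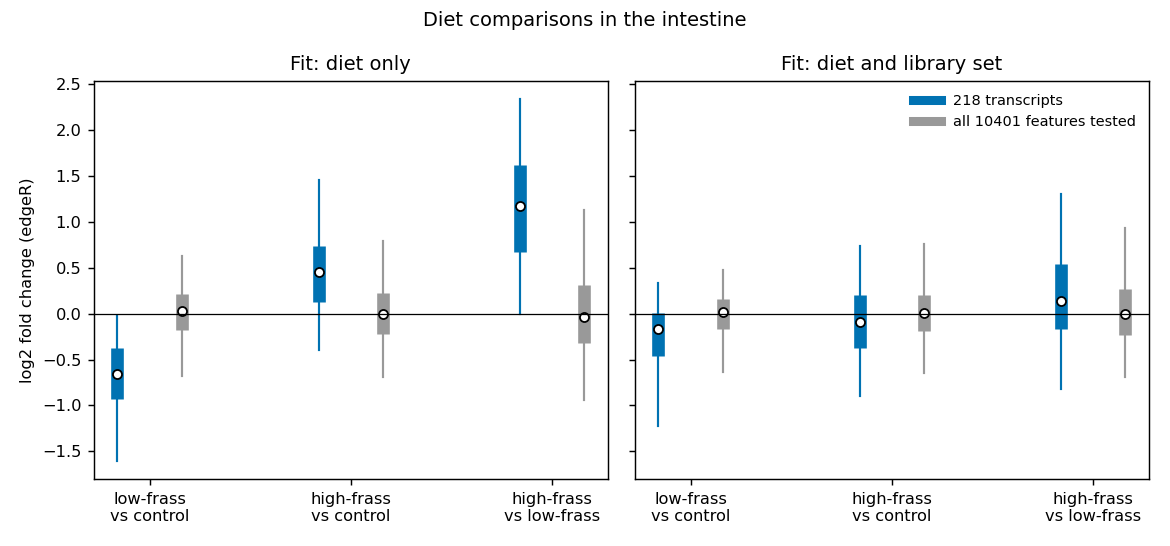
Log2 fold changes (edgeR) of the 218 transcripts and of all 10401 features tested in the 3 diet comparisons of the intestine, fitted by diet only (left) and by diet and library set (right). White circles are medians, thick bars run from the 25th to the 75th percentile and thin lines from the 5th to the 95th. The medians of the 218 transcripts, -0.66, 0.46 and 1.18 by diet only, moved to -0.17, -0.09 and 0.14 with library set in the fit.

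Low-frass intestine replicate 3 was the only posterior-like library of its diet. Without it every low-frass library is anterior-like, where the rule required the 218 transcripts to be low. The values without it therefore restate the rule and are given as a description. The median over the 218 transcripts was then -1.82 in low-frass against control and 2.27 in high-frass against low-frass, with 134 (5.92% of all features) and 183 (16.2% of all features) of the 218 at an unadjusted p under 0.05. Without high-frass replicate 4, the only anterior-like library of its diet, 61 of the 218 (21.1% of all features) had such a p in high-frass against low-frass.

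With library set as a block, the shares at an unadjusted p under 0.05 were above those of all features. The block is the split by which the rule chose the 218, so these shares are not independent of the rule. The 218 also share a pattern and are not independent of each other, and nothing is read from the gap to all features. The shares were 20 of the 218, or 9.17%, in low-frass against control (1.89% of all features), all lower in low-frass. In high-frass against control they were 22 of the 218, or 10.1% (4.87%), of which 7 were higher in high-frass. In high-frass against low-frass they were 30 of the 218, or 13.8% (7.78%), of which 16 were higher in high-frass. None passed the adjusted threshold. The low-frass count depended on control replicate 3, and without that library 2 of the 218 (0.917%, with 2.19% of all features) had such a p. High-frass against control gave 23 of the 218 (10.6%, with 4.28% of all features) without it.

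Within the anterior-like libraries alone, low-frass against control (3 and 2 libraries) gave 24 of the 218 at an unadjusted p under 0.05 (1.29% of all features). Of these, 0 were higher in low-frass. Control replicate 3, which held the highest anterior-like value for 125 of the 218, was 1 of the 2 control libraries in this fit. Within the posterior-like libraries alone, high-frass against control (3 and 2 libraries) gave 32 of the 218 (6.22% of all features), 16 of them higher in high-frass. In both, 0 of the 218 were called. The sets are those of the rule, so nothing is read from these counts. The posterior-like set had 1 low-frass library and the anterior-like set 1 high-frass library, so the other comparisons within a set have no replicates of 1 diet.

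Of single transcripts, txnipb, whose product restrains glucose uptake in mammals, had the smallest p of the 218 in both high-frass comparisons by diet only. It had 57.7, 52.1 and 115 CPM in posterior-like high-frass replicates 1, 2 and 3 and 8.27 CPM in anterior-like high-frass replicate 4. The control libraries had 11.53 and 23.3 CPM (posterior-like replicates 1 and 4) and 6.22 and 5.42 CPM (anterior-like replicates 2 and 3). Within the posterior-like set the 3 high-frass libraries were above both control libraries and above low-frass replicate 3, at 11.9 CPM. The log2 fold change of high-frass against control was 2.23 (SE 0.59, adjusted p = 0.998, edgeR), and 1.83 (SE 0.47, adjusted p = 0.734) with library set as a block.

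The immediate early gene ier2a had a log2 fold change of 1.76 (SE 0.62, adjusted p = 0.998, edgeR) in high-frass against control, and 1.07 without high-frass replicate 3. Its highest libraries were high-frass replicates 3 and 1, with 459 and 223 CPM, against 116 CPM in control replicate 1 and 61.7 CPM in control replicate 4. High-frass replicate 2, at 122 CPM, lay close to control replicate 1, at 116 CPM. The non-coding LOC108265213 had 61.9, 25.1 and 38.0 CPM in posterior-like high-frass replicates 1, 2 and 3, 7.47 and 13.4 CPM in the posterior-like control libraries and 2.25 CPM in low-frass replicate 3, and its log2 fold change of high-frass against low-frass was 4.71 (SE 1.204, adjusted p = 0.567, edgeR), and 2.68 (SE 0.87, adjusted p = 0.622) with library set as a block.

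With library set as a block, the smallest p in high-frass against control belonged to LOC108277197, with a log2 fold change of -2.92 (SE 0.63, adjusted p = 0.734), and to slc40a1, with -0.98 (SE 0.23, adjusted p = 0.734). By diet only these were -2.07 and -0.49. In low-frass against control the block fit put LOC108276973 first, with -1.15 (SE 0.30), then noxo1a, with -2.55 (SE 0.77), and hoxa9b, with -1.93 (SE 0.64), each with an adjusted p of 0.9999. Without control replicate 3 the same fit gave -0.80, -1.003 and -0.73. In high-frass against low-frass LOC108277197 again came first, with -2.37 (SE 0.68), then spp1, osteopontin, with -1.01 (SE 0.30), and renbp, with -0.60 (SE 0.18), each with an adjusted p of 0.622. By diet only the values were -0.35, 0.02 and 0.42, so spp1 and renbp changed sign between the fits.

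The roles were also compared, with groups chosen after their values were seen and no test between them. The values below are from the block fit of high-frass against low-frass, in which 139 of the 218 were above 0. Over all features its median log2 fold change was -0.004, and 7.78% had an unadjusted p under 0.05. All 8 Hox transcripts were above 0, with a median log2 fold change of 1.23, and 1 had such a p. All 12 defence transcripts were above 0, with a median of 0.69, and 2 had such a p. Of the 10 ER transcripts 0 were above 0, with a median of -0.51, and 4 had such a p, while by diet only 9 of the 10 were above 0. Of the 13 transporters and channels 7 were above 0, with a median of 0.03, and of the 3 steroid enzymes 2 were, with a median of 0.13. The medians were 0.18 for the glycosidases, 0.46 for the peptidases and 0.36 for the endocytic receptor. In the posterior-like set this comparison has 1 low-frass library, replicate 3, which had the highest ER sum. The block fits of the other comparisons split the roles differently. In high-frass against control 5 of the 8 Hox, 7 of the 12 defence and 0 of the 10 ER transcripts were above 0. In low-frass against control these counts were 1, 0 and 9.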

How the data were processed

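Pooled intestine and liver of channel catfish fed 3 diets for 10 weeks were measured by RNA sequencing after poly(A) selection, with 4 libraries per diet and tissue. The authors trimmed the reads with Trimmomatic 0.38, aligned them to the Coco_2.0 assembly with STAR 2.7.8a in 2-pass mode and counted them with HTSeq 0.9.0, without strand, in union mode and per exon parent. The deposited values are raw counts per transcript with no normalization or filter. A read shared by transcripts of 1 gene is not counted in this mode, so genes with several transcripts can lose counts. The sources differ in the number of fish per pool.

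Counts were scaled to CPM by the library total, with 0.5 added before log2, and summarised with Python 3.11.15 and pandas 2.3.3. The diets were compared with edgeR 4.0.16 in R 4.3.3 (TMM, filterByExpr with a minimum count of 10, quasi-likelihood test, 3 diets in 1 fit, Benjamini-Hochberg adjustment over 10401 features), a test first run on simulated data. The p-values measure the spread between pools. Liver libraries entered no test, and low-frass and high-frass liver replicates 3, which the study removed, are given apart from the other 10. Gene symbols, coordinates and overlaps came from the RefSeq annotation of Coco_2.0, which matched 60482 of 63022 rows.

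The 218 transcripts, the marker lists and the roles were chosen with earlier results of these data known. Transcripts were named with values when they were among the 25 with the highest mean CPM in the posterior-like libraries, the 10 with the largest log2 difference, the 3 with the smallest p in a diet comparison, the 5 with the highest liver median or the 3 nearest each limit of the rule on either side, or when they stood on a marker list. The other names in the roles and in the closing observations were picked after their values were seen. Alternatives were DESeq2 1.42.0, its size factors in edgeR, other count filters, 2 diets per fit, a replicate block, a library set block, no minimum fold change, each library left out in turn, and other limits, pseudocounts or scalings for the rule. Fits within a library set, and results without control intestine replicate 3, were added after seeing the data.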

Additional observations from a re-analysis of the deposited data

Results flagged for a closer look

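Libraries standing apart from their set were sought with Dixon's test in 80 groups of 4 or 6 libraries. It marked 18, most of them for control intestine replicate 3. Chance marks about 5% of independent groups, but these groups share libraries and transcripts, so that share is no yardstick for the count. The rule had used the intestine values tested here. The marks among intestine libraries are therefore not independent of it and are given as a description. Among the 6 anterior-like intestine libraries, control replicate 3 stood above the other 5 for the summed level of the 218 transcripts (14530 CPM), for transporters and channels (2299 CPM) and for mucosal defence and signalling (540.0 CPM). It also stood above them for slc10a2 (697 CPM), LOC108278070 (935 CPM), slc6a18 (312 CPM), calr3b (462 CPM) and tpp1 (194 CPM). The same library was set apart for nox1 (124 CPM), noxo1a (71.8 CPM), nos2b (22.3 CPM), amn (19.4 CPM) and hoxa10b (8.33 CPM).

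Control replicate 2 stood above the other anterior-like libraries for LOC108279015 (68.3 CPM) and hoxc13a (1.2 CPM). High-frass replicate 4 stood below them for naga (126 CPM). Among the 4 low-frass intestine libraries, replicate 3 stood apart in the summed level (76223 CPM, against 7488 to 8314 CPM in the others), but it was the only posterior-like library of that diet, so the rule that chose the 218 transcripts fixed this gap and the test says nothing about it.

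Low-frass liver replicate 3 stood apart from the other low-frass livers with 79164 CPM (against 3766 to 4399 CPM). It is also a signal in data that the study's comparisons left out. How that library came to hold this level was not tested.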

How the results depend on the processing

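With every alternative count filter, scaling, pair of diets and left-out library run in edgeR, 0 of the 218 transcripts were called in each of the 3 diet comparisons. DESeq2 called 2 in high-frass against low-frass, txnipb (log2 fold change 2.41) and LOC108265213 (4.74). Leaving out each library in turn gave 0 calls each time, while the median log2 fold change of the 218 in high-frass against low-frass ran from 0.94 to 2.27, the highest without low-frass replicate 3. The correlation of the deviations from the diet means between same-numbered libraries ran from -0.65 to 0.46. It was positive only where both libraries were of the same set, so it cannot show whether replicate numbers pair the libraries. With a replicate block 0 of the 218 were called in each comparison. Of 154 alternative values for the transcripts named by their p by diet only, 151 kept their direction and their side of the threshold, and 1 turned round: LOC108267181 had 0.0638 in low-frass against control within the anterior-like libraries. The rule gave 218 transcripts, 888 with a log2 difference above 1, 102 with one above 3 and 142 with TMM scaling. For rows with few counts, such as hoxa13b in the anterior-like libraries, depth limits the precision. Library set and diet cannot be fully told apart, since the sets hold the diets unequally.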

Other observations

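Outside the 8 roles, the 218 transcripts included enzymes that handle the sugars set free from glycans. The sialic acid lyase npl averaged 314 CPM in the posterior-like libraries and 61.9 CPM in the anterior-like libraries. The N-acetylglucosamine epimerase renbp averaged 56 CPM in the posterior-like libraries and 7.03 CPM in the anterior-like libraries. The kinase galk2, which acts on N-acetylgalactosamine in mammals, averaged 100.1 CPM in the posterior-like libraries and 19.5 CPM in the anterior-like libraries. These genes were picked after their values were seen.

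Several members act on lipids. The acyltransferase lpcat1 ran from 119 to 227 CPM in the posterior-like set and from 3.89 to 20.4 CPM in the anterior-like set. Endothelial lipase, lipg, averaged 78.8 CPM in the posterior-like libraries and 2.47 CPM in the anterior-like libraries, and the desaturase scd averaged 64.4 CPM in the posterior-like libraries and 5.18 CPM in the anterior-like libraries. Both varied widely among the posterior-like libraries, with coefficients of variation of 68.0% and 83.1%. The taurine synthesis enzyme csad ran from 316 to 968 CPM in the posterior-like set and from 5.80 to 75 CPM in the anterior-like set, and its liver median was 121 CPM.

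Transcription factors other than Hox genes were also present. The forkhead factor foxd2 ran from 419 to 649.7 CPM in the posterior-like set and from 14.8 to 76.4 CPM in the anterior-like set, and 0 CPM was its median in the 10 kept livers. The homeobox factor hnf1bb kept to 179 to 243 CPM in the posterior-like set, with 35.5 to 82.0 CPM in the anterior-like set. Also picked after their values were seen, cebpb, ier2a and adm2a had their posterior-like maximum in high-frass replicate 1 or 3 and their minimum in low-frass replicate 3 or control replicate 4.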
